A study of Chlamydomonas reinhardtii with 28 samples.

Results

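The positions of H3K4me1 peaks relative to H3K4me3 peaks were described in wild-type (WT) vegetative cells of the unicellular green alga Chlamydomonas reinhardtii. The peaks were all those in the 4 deposited WT lists of these marks, from the mating type plus strain CC-5155 (mt+) and the mating type minus strain CC-5325 (mt−). They were 37907 of the 152930 peaks in all 18 lists of the series. H3K4me1 gave 2067 peaks in WT mt+ cells and 5151 in WT mt− cells, and H3K4me3 gave 15256 in WT mt+ cells and 15433 in WT mt− cells. Each list was set against the other list of the same strain. The WT strains carry no knockout according to the labels, and both were grown in TAP. Chromatin was fixed with formaldehyde and precipitated with Abcam antibodies (ab8895 for H3K4me1, ab8580 for H3K4me3). The series also profiled dnmt1 and set3 mutants and the marks H3K9me1 and H3K9me3, which enter below only as comparators. Within a strain, the H3K4me3, H3K4me1 and H3K9me3 libraries have the same input library, per the labels.

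H3K4me1 and H3K4me3 are the mono- and trimethylated forms of the same residue, lysine 4 of histone H3, so a single histone tail carries either one or the other. H3K4me3 typically sits on nucleosomes at the start of active genes. In animals H3K4me1 is known from enhancers and from the borders of H3K4me3 domains, and in plants from the bodies of transcribed genes.

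There was 1 library per mark and strain. No replicate error, p-value or test is therefore given, and the strains are shown side by side. Intervals are 95% Wilson intervals for shares and 95% order-statistic intervals for medians. Intervals of width differences subtract the opposite limits of the flanked and unflanked medians, so they are not 95% intervals of the difference. All these intervals cover counting error only, and they treat peaks as independent although neighbouring peaks share a library. The lists hold no read counts, and depth was not estimated. As a background for position, each H3K4me1 list was moved along its own sequences by 200 evenly spaced circular shifts. The median over shifts is given with the lowest and highest value, as a description of where these peaks would fall if displaced as a block.

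H3K4me1 peaks were weak and narrow beside H3K4me3 peaks. Their median width was 345 bp in WT mt+ and 346 bp in WT mt−, against 788 and 822 bp for H3K4me3. Their median fold enrichment, the authors' value per peak, was 2.11 in WT mt+ cells and 2.00 in WT mt− cells, against 5.26 and 3.95 for H3K4me3. H3K4me1 covered 0.791 Mb in WT mt+ and 2.02 Mb in WT mt−, against 12.96 and 13.6 Mb for H3K4me3. Of the H3K4me1 peaks, 39 in WT mt+ and 62 in WT mt− had a −log10 q-value of at least 5, so nearly all lay close to the authors' peak threshold.

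Few H3K4me1 peaks overlapped an H3K4me3 peak. A summit of H3K4me1 lay inside an H3K4me3 peak for 0 of 2067 peaks in WT mt+ (interval up to 0.186%) and for 1 of 5151 in WT mt− (0.0194%, 0.00343 to 0.11). In the shifted lists the median share was 11.7% in WT mt+ (range 9.72 to 13.4) and 12.2% in WT mt− (10.99 to 14.3). An overlap of at least 1 bp was found for 4 H3K4me1 peaks in WT mt+ (0.194%, 0.0753 to 0.497) and 14 in WT mt− (0.272%, 0.162 to 0.456). Shifted lists overlapped in 16.7% (14.5 to 18.8) and 17.4% (15.9 to 19.4) of peaks. The observed shares lay below every shift in both strains. Among the few peaks with a −log10 q of at least 5 in both lists, 2 of 39 overlapped in WT mt+ cells (5.13%, 1.42 to 16.9) and 1 of 62 in WT mt− cells (1.61%, 0.285 to 8.59).

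The overlaps were 16 to 79 bp long in WT mt+ and 3 to 187 bp long in WT mt−, and those named here were picked after their values were seen. In WT mt+ they were chr10:6519868-6520399, chr11:2587557-2588047, chr15:1199969-1200226 and chr16:1806268-1806944, in the coordinates of the deposited files. These 4 peaks shared 16, 46, 79 and 72 bp with an H3K4me3 peak. On chromosome 15 the strains coincided, because the WT mt− peak at chr15:1199732-1200220 also touched an H3K4me3 peak, by 9 bp. The longest overlap, 187 bp, was that of chr11:1460439-1460833 in WT mt−, a 395-bp H3K4me1 peak at a 334-bp H3K4me3 peak. The only H3K4me1 peak with its summit inside was chr1:5876265-5876705 of WT mt−, with a fold of 2.23 and an overlap of 115 bp. The H3K4me3 peak it entered was 367 bp wide with a fold of 2.35, against a list median of 822 bp and 3.95.

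Outside H3K4me3 peaks, H3K4me1 summits were sparse next to the edge and dense 501 to 2000 bp from it. Within 1 to 200 bp of an edge lay 13 summits in WT mt+ cells (0.629%) and 31 in WT mt− cells (0.602%), against shifted medians of 5.37% and 5.39%. At 201 to 500 bp the observed shares were 9.05% in WT mt+ cells and 7.18% in WT mt− cells, against 7.40% and 7.47% in shifted lists. The first of these lay above its highest shift of 8.81% and the second inside its range of 6.35% to 8.56%. At 501 to 1000 bp they were 21.3% in both strains, against 11.2% and 11.3%. At 1001 to 2000 bp they were 35.4% in WT mt+ cells and 33.4% in WT mt− cells, against 18.6% and 18.7%. The zone of 501 to 2000 bp thus held 1172 summits in WT mt+ (56.7%, 54.6 to 58.8) and 2816 in WT mt− (54.7%, 53.3 to 56.0). Shifted lists held 29.6% there in WT mt+ (27.0 to 32.8) and 30.1% in WT mt− (27.96 to 31.8), so both observed shares lay above every shift. This zone joins the classes that stood most above the shifted lists. Over all of 1 to 1000 bp the excess was smaller, with 31.0% in WT mt+ (29.1 to 33.0) and 29.1% in WT mt− (27.8 to 30.3). Shifted lists held 24.0% (20.8 to 26.6) and 24.3% (22.6 to 26.4) within that distance.

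Farther out, H3K4me1 was sparser than in shifted lists. The class of 2001 to 5000 bp held 25.0% of summits in WT mt+ cells and 28.8% in WT mt− cells, against 29.4% (26.7 to 31.6) and 29.1% (27.6 to 30.6). Only WT mt+ lay outside the range of its shifts here. Over 5000 bp from any edge lay 179 summits in WT mt+ (8.66%, 7.52 to 9.95) and 447 in WT mt− (8.68%, 7.94 to 9.48). Shifted lists placed 16.4% (13.7 to 19.2) and 15.7% (13.4 to 17.8) that far away.

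In 200-bp bins the ratio of observed to mean shifted summits was lowest at the edge and highest near 1 kb. At 1 to 200 bp it was 0.117 in WT mt+ cells and 0.111 in WT mt− cells. At 201 to 400 bp it was 1.05 in WT mt+ cells and 0.778 in WT mt− cells. The 204 WT mt− summits in that bin were fewer than in the lowest shift, with 223. The ratio peaked at 2.28 in WT mt+, between 1001 and 1200 bp, and at 2.08 in WT mt−, between 1201 and 1400 bp. In WT mt+ it was below 1 in every bin from 2601 to 5000 bp. Beyond its peak in WT mt−, it first fell below 1 at 2801 to 3000 bp, was 1.17 in the next bin, and stayed below 1 from 3201 bp on.

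**Figure D1:**
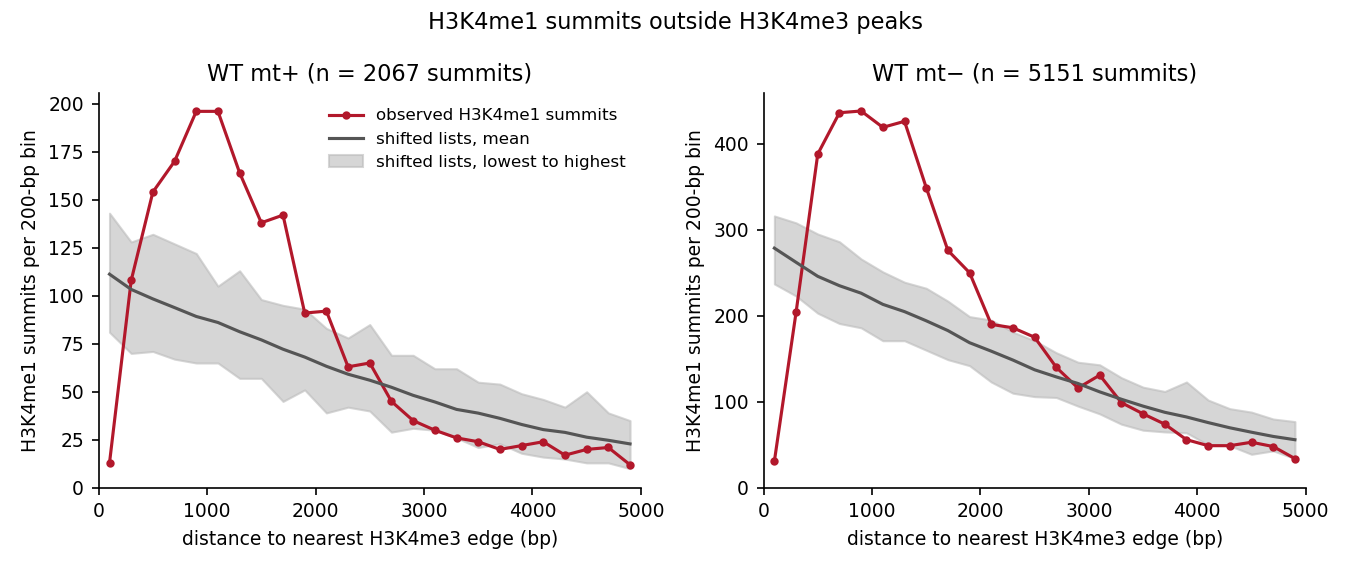
Number of H3K4me1 summits (y axis) by distance to the nearest H3K4me3 edge (x axis, bp) in 200-bp bins, for WT mt+ and WT mt−. Red points are observed counts, the grey line is the mean and the grey band the lowest to highest value over 200 circular shifts. The nearest bin holds 13 summits in WT mt+ and 31 in WT mt−, far below the band, and both curves stand above the band around 1 kb.

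Distances between summits gave the same picture. The H3K4me1 summit lay within 500 bp of an H3K4me3 summit for 14 peaks in WT mt+ cells (0.677%) and 24 in WT mt− cells (0.466%), against 13.5% and 13.7% in shifted lists. A distance of 1000 to 2500 bp was found for 54.8% of peaks in WT mt+ cells and 51.7% in WT mt− cells, against 29.1% and 29.6%. The median from summit to summit was 1944 bp in WT mt+ (1890 to 1998), below the shifted range of 2023 to 2377 bp. In WT mt− it was 2028 bp (1977 to 2079), inside the shifted range of 1995 to 2284 bp. From H3K4me1 summit to H3K4me3 edge the median was 1430 bp in WT mt+, below the shifted range of 1560 to 1924 bp. It was 1534 bp in WT mt−, at the low end of the shifted range of 1528 to 1837 bp.

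The excess at 501 to 2000 bp was spread over the chromosomes. This zone was chosen from these same peaks, so the counts of chromosomes describe its spread and are no separate support. The observed share ranged from 42.5% to 65.2% by chromosome in WT mt+ and from 42.6% to 61.3% in WT mt−. It exceeded the chromosome's own shifted median on 17 of 17 chromosomes in both strains. It exceeded every shift on 16 chromosomes in WT mt+ and on 17 in WT mt−. The exception was chromosome 15 in WT mt+, where the observed share of 42.5%, from 40 peaks, equalled the highest shift.

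**Figure D2:**
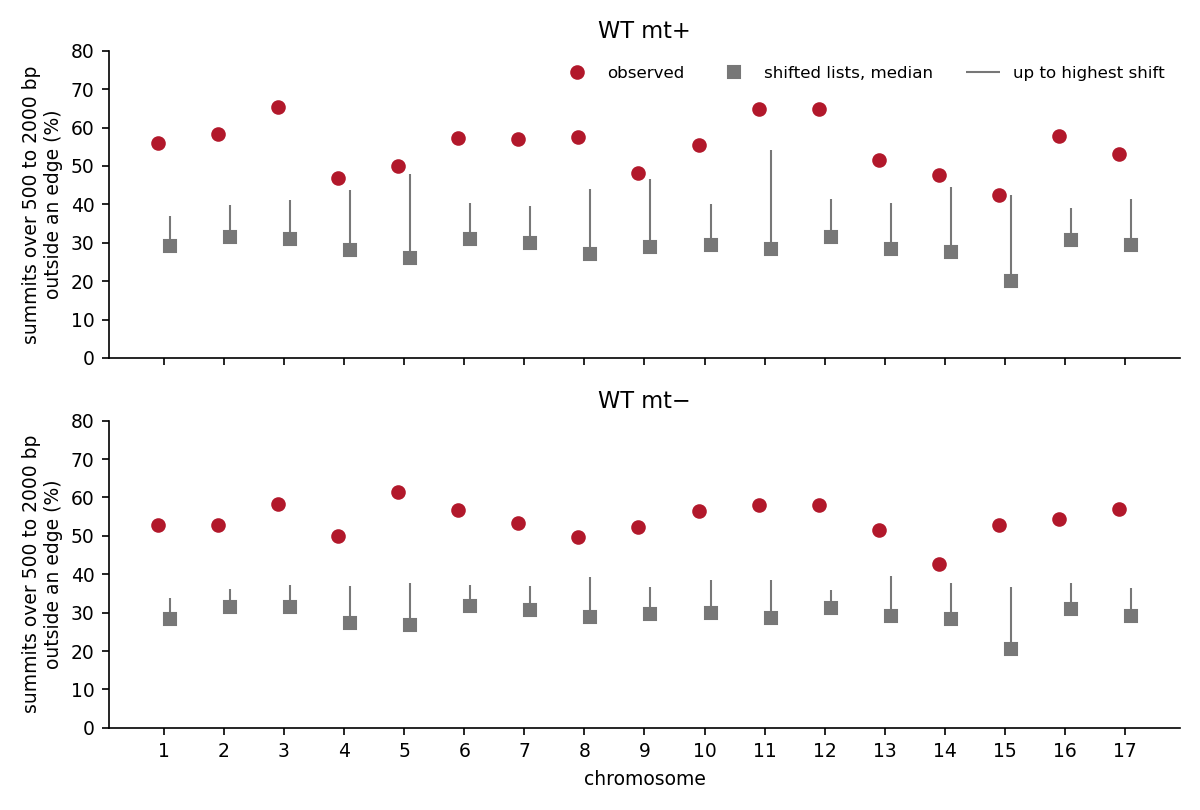
Share of H3K4me1 summits 501 to 2000 bp outside an H3K4me3 edge (y axis, %) on each of 17 chromosomes (x axis), for WT mt+ (top) and WT mt− (bottom). Red circles are observed shares, grey squares the median over 200 circular shifts, and the line reaches the highest shift. Every red circle lies above its square, and in WT mt+ chromosome 15 only reaches the top of its line, at 42.5%. The zone was chosen from these same summits.

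The fold of H3K4me1 peaks varied little with distance, while in WT mt− the peaks of highest −log10 q lay more often at 501 to 2000 bp. In the 6 classes of distance outside an edge, median fold lay between 2.04 and 2.13 in WT mt+ and between 1.92 and 2.00 in WT mt−. The share at 501 to 2000 bp was 59.6% in the 25% of WT mt+ peaks with the highest −log10 q and 57.4% in the lowest 25%. Among WT mt− peaks it was 59.4% in the highest 25% (56.7 to 62.0) and 52.3% in the lowest (49.5 to 54.97). Among peaks with a −log10 q of at least 5 it was 25 of 39 in WT mt+ cells (64.1%, 48.4 to 77.3) and 40 of 62 in WT mt− cells (64.5%, 52.1 to 75.3).

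Detection in the other strain did vary with distance. An H3K4me1 peak of the other strain overlapped 698 of the WT mt+ peaks (33.8%) and 710 of the WT mt− peaks (13.8%). At 1001 to 2000 bp this share was 38.4% in WT mt+ (35.0 to 42.0) and 15.8% in WT mt− (14.1 to 17.6). Over 5000 bp it was 23.5% (17.9 to 30.2) and 10.1% (7.61 to 13.2). At 201 to 500 bp it was similarly low, at 24.1% (18.5 to 30.7) and 10% (7.34 to 13.5). The lists differ in length, so the shares of the strains are not comparable with each other.

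Single peaks are named as examples, picked by distance class and then by highest WT mt+ fold among peaks detected in both strains. Their distances follow from this choice and do not show which distances are common. Close to an edge in both strains, the WT mt+ peak at chr1:5697179-5697728 had a fold of 2.81, and its summit lay 908 bp from an H3K4me3 peak at chr1:5695544-5696471. The matching WT mt− peak had a fold of 1.60 and a summit 883 bp from an edge. The peak at chr3:8856241-8856559 had a fold of 2.55 in WT mt+ and 1.99 in WT mt−, with summits 939 and 837 bp from an edge. The peak at chr8:1756382-1756724 had 2.55 and 1.88, with distances of 398 and 296 bp. Of peaks far from any edge, chr14:775854-776435 had a fold of 2.69 in WT mt+ and 1.77 in WT mt−, at 9056 and 9359 bp. The others were chr17:1484708-1485198, at 9387 bp in WT mt+ and 9854 bp in WT mt−, and chr17:6375203-6375475, at 5591 and 5791 bp. No H3K4me1 summit lay inside an H3K4me3 peak in both strains.

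H3K4me1 summits in the gaps between neighbouring H3K4me3 peaks were counted by gap length. Of gaps of up to 500 bp, 0 of 955 held an H3K4me1 summit in WT mt+ (interval up to 0.401%) and 2 of 1020 in WT mt− (0.196%). Gaps of 2001 to 4000 bp held one in 8.38% of cases in WT mt+ and 16.4% in WT mt−. For gaps of 8001 to 20000 bp it was 18.9% and 38.8%. A longer gap has more room for a summit, so these shares would rise with length at an even density too. Per length, summits were densest at 2001 to 4000 bp in WT mt+, with 29.2 per Mb, against 25.8 per Mb at 4001 to 8000 bp. In WT mt− they were densest at 4001 to 8000 bp, with 63.4 per Mb, against 60.6 per Mb at 2001 to 4000 bp. These values are close and have no intervals, so the different order is not read as a strain difference. In gaps of 8001 to 20000 bp the density was lower, at 20.3 per Mb in WT mt+ and 53.6 per Mb in WT mt−. In gaps over 20000 bp the density was 10.5 per Mb in WT mt+ and 26.5 per Mb in WT mt−.

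Within a gap, the share of summits in the outer parts rose as the gap lengthened. These parts are shares of the gap's length and so are wider in bp in longer gaps. The rise therefore follows in part from the distances to an edge given above and is no separate support. In gaps of 1001 to 2000 bp the middle 20% of the gap held 13 of 31 summits in WT mt+ cells (41.9%, 26.4 to 59.2) and 32 of 81 in WT mt− cells (39.5%, 29.6 to 50.4). An even spread would put 20% of summits there. In gaps over 8000 bp the middle 20% held 13.2% in WT mt+ (11.3 to 15.3) and 12.2% in WT mt− (11.04 to 13.5). The outer 20% at each end, next to an H3K4me3 peak, then together held 56.6% (53.7 to 59.6) and 56.3% (54.5 to 58.1), where an even spread would put 40%.

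**Figure D3:**
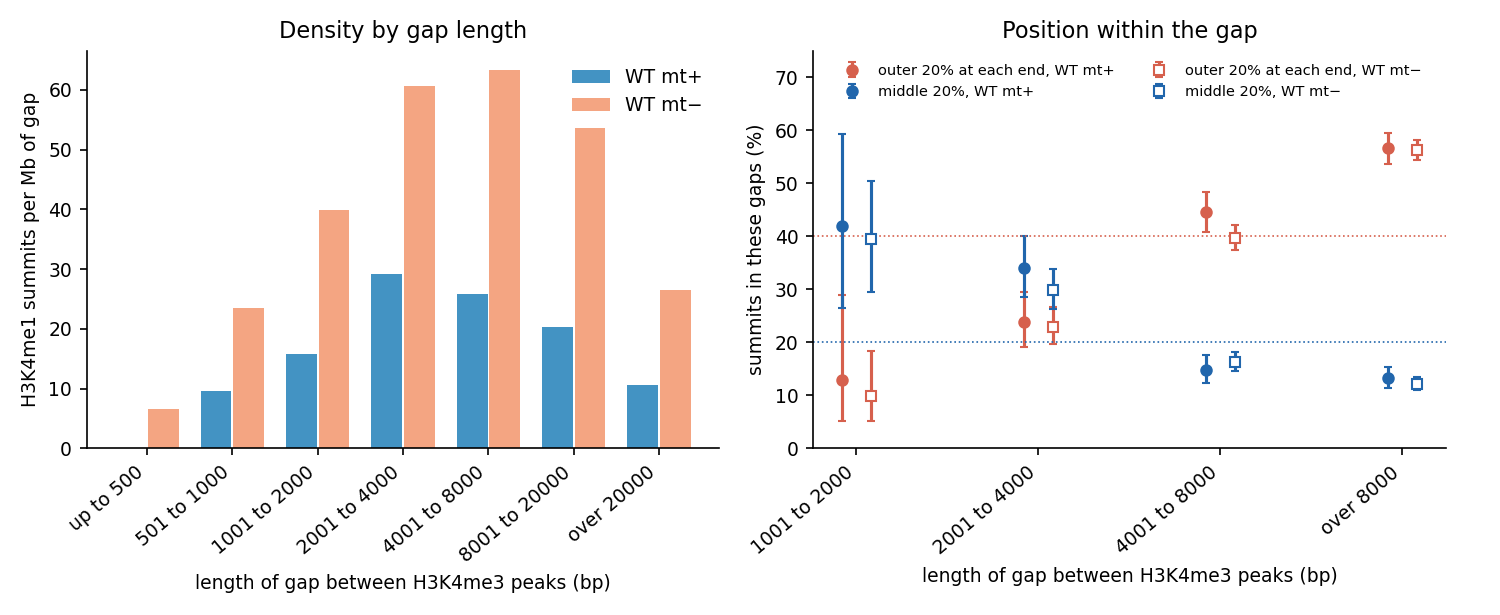
Left: H3K4me1 summits per Mb (y axis) in gaps between neighbouring H3K4me3 peaks, by gap length (x axis, bp), for WT mt+ (blue bars) and WT mt− (orange bars). Right: share of the summits in these gaps (y axis, %) that lie in the outer 20% at each end (red) or the middle 20% (blue) of the gap, with filled circles for WT mt+, open squares for WT mt−, bars for 95% Wilson intervals and dotted lines for an even spread (40% and 20%). The middle 20% lies above its line in gaps of up to 4000 bp and below it in longer ones. The outer parts lie above theirs in gaps over 8000 bp in both strains, while at 4001 to 8000 bp they hold 44.5% in WT mt+ and 39.8% in WT mt−.

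Seen from H3K4me3, only a minority of peaks had H3K4me1 beside them. A side was counted as flanked where an H3K4me1 summit lay within 1000 bp outside that edge. In WT mt+ 648 H3K4me3 peaks were flanked on 1 or both sides (4.25%, 3.94 to 4.58), and in WT mt− 1517 (9.83%, 9.37 to 10.3). Shifted lists flanked 3.56% in WT mt+ (3.05 to 3.93) and 8.61% in WT mt− (8.09 to 9.32), so the observed shares were above every shift by a small margin. With a flank of 2000 bp the shares were 9.60% in WT mt+, against 6.80% in shifted lists (6.23 to 7.22), and 20.5% in WT mt−, against 15.8% (14.9 to 16.9). The WT mt− share moves with the length of its H3K4me1 list, and was 4.13% with that list reduced to the 2067 peaks of highest −log10 q.

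Flanking on both sides was rare and no more common than in shifted lists. It was found for 12 H3K4me3 peaks in WT mt+ (0.0787%, 0.045 to 0.137), equal to the shifted median of 0.0787% (0.0328 to 0.17). For WT mt− it was 39 peaks (0.253%, 0.185 to 0.345), below the shifted range of 0.272% to 0.557%. The lower-coordinate side was flanked 342 times in WT mt+ and 796 times in WT mt−, and the higher-coordinate side 318 and 760 times. Of peaks flanked on 1 side, the flanked side was the one nearer the H3K4me3 summit in 356 of 634 in WT mt+ cells (56.2%, 52.3 to 59.97) and 819 of 1477 in WT mt− cells (55.5%, 52.9 to 58.0), leaving out 2 and 1 peaks with a central summit. No annotation of the files' build was used, so the sides could not be assigned to upstream or downstream of a gene.

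A single H3K4me3 peak was flanked on both sides in both strains. It lay at chr12:9805415-9806432 in WT mt+, was 1018 bp wide and had a fold of 6.70. Its WT mt− counterpart, chr12:9805422-9806452, was 1031 bp wide with a fold of 3.83. In WT mt+ the H3K4me1 peaks beside it were chr12:9804903-9805161, with a fold of 2.11 and a summit 293 bp from the edge, and chr12:9807175-9807510, with 2.12 and 906 bp.

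Flanking was only partly shared between the strains. Of flanked WT mt+ peaks with a counterpart in WT mt−, 213 of 647 had a flanked counterpart (32.9%, 29.4 to 36.6), against 1300 of 14516 unflanked ones (8.96%, 8.50 to 9.43). Of flanked WT mt− peaks, 213 of 1504 had a flanked counterpart in WT mt+ (14.2%, 12.5 to 16.02), against 434 of 13526 unflanked ones (3.21%, 2.92 to 3.52).

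Flanked H3K4me3 peaks were wider than unflanked ones in the full lists of both strains. Their median width was 916 bp in WT mt+ (882 to 941), against 783 bp (777 to 789) for unflanked peaks, a difference of 133 bp. The WT mt− medians were 964 bp (935 to 995) against 807 bp (801 to 814), a difference of 157 bp. With shifted H3K4me1 lists the difference had a median of 6.75 bp in WT mt+ (−39 to 61) and 9.5 bp in WT mt− (−18 to 44). With only peaks of a −log10 q of at least 5 in both lists, the difference was 56.5 bp in WT mt+ (−572 to 794, 8 flanked peaks) and turned to −72 bp in WT mt− (−192 to 214, 23 flanked peaks). Flanked peaks of the full lists were wider on 16 of 17 chromosomes in WT mt+, with chromosome 17 the exception at 703 bp against 756.5 bp, and on 17 of 17 in WT mt−. Peaks of at least 1500 bp made up 7.87% of flanked against 4.98% of unflanked peaks in WT mt+ cells, and 10.1% against 5.78% in WT mt− cells. Peaks flanked on both sides had medians of 1172 bp in WT mt+ (1009 to 1412, n = 12) and 1077 bp in WT mt− (904 to 1267, n = 39).

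The share of flanked peaks was higher among wider H3K4me3 peaks. In WT mt+ it was 1.97% in the narrowest 10% of the list (188 to 468 bp) and 6.36% in the widest (1316 to 3965 bp). For WT mt− it was 3.76% in the narrowest 10% (160 to 475 bp) and 16.5% in the widest (1359 to 6542 bp). Peaks flanked in both strains had a median width of 980 bp in WT mt+ and 1003 bp in WT mt−. Those flanked in 1 strain had 904 and 943 bp, and those flanked in neither 774 and 814 bp.

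**Figure D4:**
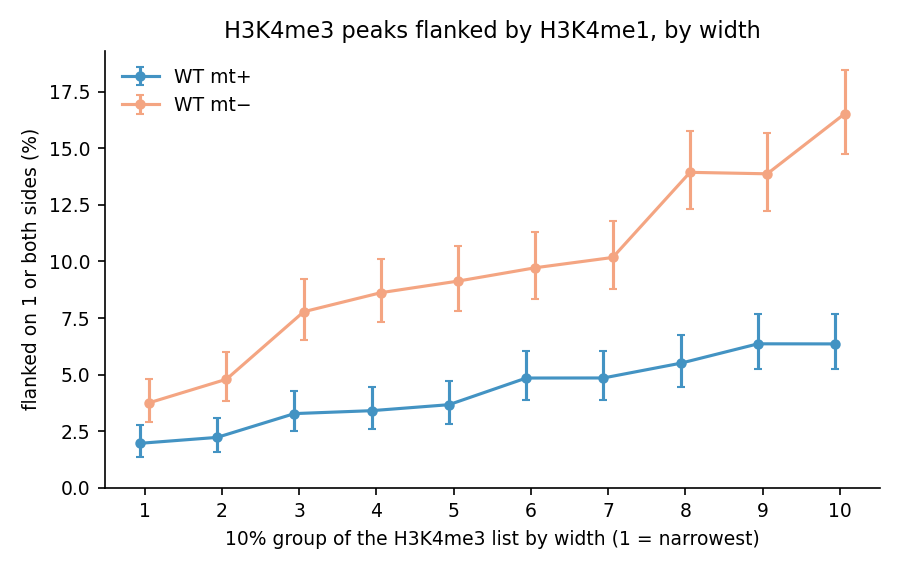
Share of H3K4me3 peaks flanked by H3K4me1 on 1 or both sides (y axis, %) in 10 groups of equal size by peak width (x axis, 1 is the narrowest), for WT mt+ (blue) and WT mt− (orange), with 95% Wilson intervals. The share runs from 1.97% to 6.36% in WT mt+ cells and from 3.76% to 16.5% in WT mt− cells.

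Width goes with other properties of an H3K4me3 peak, and these differed between flanked and unflanked peaks too. Median fold was 5.54 for flanked against 5.25 for unflanked peaks in WT mt+ cells, and 4.05 against 3.93 in WT mt− cells. The median gap to the nearest other H3K4me3 peak was 3161 bp against 2836.5 bp in WT mt+, and 3216 bp against 2748 bp in WT mt−. Within 4 groups of equal size by fold, flanked peaks were wider in 4 of 4 groups in both strains, by 57 to 133 bp in WT mt+ and by 116.5 to 229 bp in WT mt−. Within 4 groups by that gap they were wider by 69 to 148 bp in WT mt+ and by 75.5 to 161 bp in WT mt−. The intervals of flanked and unflanked medians overlapped in 2 of these 16 comparisons, group 3 by fold and group 1 by gap in WT mt+, counted from the lowest.

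**Figure D5:**
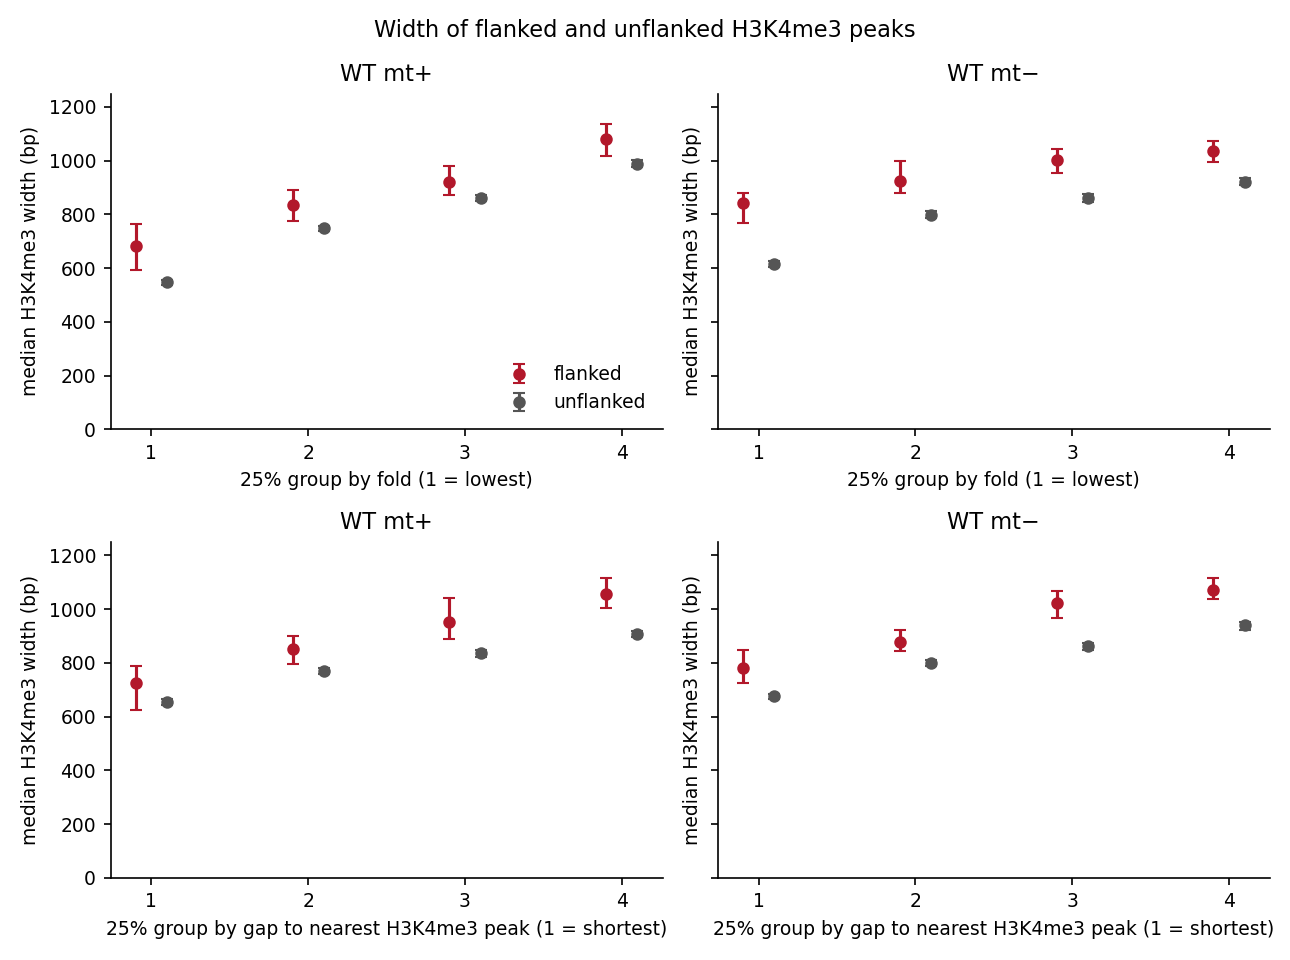
Median width of H3K4me3 peaks (y axis, bp) flanked (red) and unflanked (grey) by H3K4me1, in 4 groups of equal size by the authors' fold (top) and by the gap to the nearest other H3K4me3 peak (bottom), for WT mt+ (left) and WT mt− (right). Points are medians and bars their 95% order-statistic intervals. The red point is the higher one in all 16 pairs.

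Flanked H3K4me3 peaks also carried H3K9me3 more often. An H3K9me3 peak overlapped 585 of 648 flanked peaks in WT mt+ (90.3%, 87.8 to 92.3), against 11158 of 14608 unflanked ones (76.4%, 75.7 to 77.1). In WT mt− it was 1395 of 1517 (91.96%, 90.5 to 93.2) against 10687 of 13916 (76.8%, 76.1 to 77.5). Within 4 groups of equal size by width the flanked share was the higher one in 4 of 4 groups in both strains. The difference was wide in the narrowest group, with 44.2% against 32.5% in WT mt+ cells and 51.3% against 33.1% in WT mt− cells. In the widest group it was 99.1% against 97.2%, and 99.8% against 97.4%. The summits of 99.5% of H3K9me3 peaks in WT mt+ and 99.6% in WT mt− lay inside an H3K4me3 peak. The reverse did not hold, since the H3K4me3 peaks without an H3K9me3 peak were mostly narrow, as the shares by width show. What the H3K9me3 antibody bound at H3K4me3 peaks was not tested.

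H3K4me1 summits lay inside H3K4me3 peaks less often than summits of H3K9me1, a mark of silenced chromatin in this alga. The counts were 0 of 2067 H3K4me1 peaks in WT mt+ and 1 of 5151 in WT mt−. For H3K9me1 they were 44 of 3831 (1.15%, 0.857 to 1.54) and 70 of 4113 (1.70%, 1.35 to 2.14). H3K4me3 peaks covered 11.3% of the sequences in WT mt+ and 11.9% in WT mt−, so the summit shares of both marks were below that coverage. An overlap of at least 1 bp was found for 10.4% of H3K9me1 peaks in WT mt+ and 12.4% in WT mt−. For H3K4me1 it was 0.194% and 0.272%. H3K9me1 peaks can be far wider, up to 115294 bp in WT mt+ and 98072 bp in WT mt−. The H3K9me1 shares are given without shifted lists. The share at 501 to 2000 bp was 56.7% for H3K4me1 against 31.9% for H3K9me1 in WT mt+ cells, and 54.7% against 31.4% in WT mt− cells. An H3K9me1 peak overlapped 177 H3K4me1 peaks in WT mt+ cells (8.56%) and 288 in WT mt− cells (5.59%), and 10.1% and 10.3% of those over 5000 bp from an H3K4me3 edge.

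Positions were also counted with other lists. Set against the H3K4me3 list of the other strain, H3K4me1 summits lay inside for 0 peaks in WT mt+ cells and 1 in WT mt− cells. At 501 to 2000 bp lay 56.8% and 54.6%. An H3K4me3 peak of the other strain overlapped 99.4% of unflanked H3K4me3 peaks in WT mt+ and 97.2% in WT mt−. The exchange therefore used nearly the same positions and adds no separate support. In dnmt1 cells, which lack the DNA methyltransferase DNMT1, H3K4me1 summits lay inside an H3K4me3 peak of the same cells for 6 of 12718 peaks in mt+ and 0 of 1104 in mt−. They lay at 501 to 2000 bp for 46.5% and 58.3% of these peaks. The dnmt1 shares are given without shifted lists, so they have no background for position. All libraries of a mark were made with the same antibody, so they share whatever that antibody binds.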

How the data were processed

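Per the labels, chromatin was fixed, sonicated and precipitated with 1 antibody per mark. Per the submitters' processing notes, the tools were Trim Galore 0.6.7, Bowtie2 2.4.2 and Picard, with MACS2 2.2.7.1 for peaks and deepTools 3.5.1. Settings and build are not given in the sources used here. In 1 list per library the authors deposited narrow peaks with an integer score, a fold enrichment (a linear ratio), −log10 p-values and −log10 q-values per peak, and the summit. The fold and −log10 q are the authors' values. They served to describe, rank and filter the peaks of 1 list. The score was not used. The lowest −log10 q in the 4 lists was 2.00, a q-value of 0.01.

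Distances, overlaps (at least 1 bp), flanks and circular shifts were computed with Python 3.11.15, numpy 2.4.6, pandas 2.3.3 and scipy 1.17.1, and figures with matplotlib 3.10.9. Each sequence (17 chromosomes, 40 contigs and mating_type_plus) was taken to end at the farthest peak of any of the 18 lists. A shift moves a whole list, wrapped at the sequence end, and keeps the spacing of its peaks. The position functions were tested on simulated data against a base-by-base count. Distances run from the H3K4me1 summit and are 0 inside a peak. Coordinates are counted from 1.

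Peaks were named by rule: for summits inside, 1 to 1000 bp outside, and over 5000 bp from an H3K4me3 peak, the 3 WT mt+ H3K4me1 peaks of highest fold that overlap a WT mt− peak of the same position, and the H3K4me3 peaks of highest fold and width flanked on both sides in both strains. The peaks, lists and comparisons were chosen with earlier results of these data known. Input libraries were not analysed here.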

Additional observations from a re-analysis of the deposited data

How the results depend on the processing

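Of 99 recomputed values, 56 stayed within the interval of the reported value, 42 moved outside it and 1 changed sign. No paired analysis was possible because each mark and strain has 1 library, and for the same reason no replicate could be left out. With a −log10 q of at least 5 in both lists few H3K4me1 peaks remained. The overlap was then 5.13% in WT mt+ and 1.61% in WT mt−. Summits 1 to 1000 bp outside an edge made up 20.5% and 35.5%, against 31.0% and 29.1% in the full lists. Flanked peaks made up 0.0528% and 0.151%, and peaks flanked on both sides 0% in both. The width difference was 56.5 bp in WT mt+ and −72 bp in WT mt−, where 23 peaks were flanked and the interval ran from −192 to 214 bp. The cause was not tested.

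With at least 50% of the H3K4me1 peak covered, the overlap was 0% in both strains. By the summit alone it was 0% in WT mt+ cells and 0.0194% in WT mt− cells. Summits up to 500 bp from an edge made up 9.68% in WT mt+ cells and 7.78% in WT mt− cells, and up to 2000 bp 66.4% and 62.5%. A flank of 500 bp gave 1.32% and 2.64% of H3K4me3 peaks flanked, with 0.0131% and 0.013% on both sides. A flank of 2000 bp gave 9.60% and 20.5%, with 0.367% and 1.54% on both sides. Counting 1 bp of an H3K4me1 peak gave 5.42% and 12.5%, with 0.138% and 0.447% on both sides.

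In WT mt−, with the H3K4me1 list reduced to the length of the WT mt+ list, 4.13% of peaks were flanked, 0.0454% on both sides, and the width difference was 109.5 bp. Without H3K4me1 peaks at H3K9me1, 9.31% were flanked. Against the WT mt+ H3K4me3 list, an alternative chosen after seeing the data, the overlap was 0.136%. Within 4 groups of equal size, numbered from the lowest, the width differences that moved were 88.5 and 57 bp (fold, groups 2 and 3) and 69 and 83 bp (gap, groups 1 and 2) in WT mt+. For WT mt− they were 229 and 116.5 bp (fold, groups 1 and 4) and 107.5 and 75.5 bp (gap, groups 1 and 2). Local shifts of 5 to 50 kb gave medians inside the range of the circular shifts. Without depth, the fewer H3K4me1 peaks of WT mt+ cannot be told apart from weaker detection.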

Other observations

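The density of H3K4me1 varied more between chromosomes than that of H3K4me3. H3K4me1 had 6.81 to 25.0 peaks per Mb by chromosome in WT mt+ and 11.6 to 62.9 in WT mt−, against 104 to 145 and 107 to 149 for H3K4me3. Chromosome 15 was the lowest for both marks in both strains. It also had the lowest share of flanked H3K4me3 peaks, 1.47% in WT mt+ and 1.44% in WT mt−.

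The gap between H3K4me3 peaks with the most H3K4me1 summits was the same in both strains and was picked for that count. It ran from 702806 to 785332 on chromosome 14 in WT mt+ and from 702847 to 785312 in WT mt−, or 82.5 kb, and held 11 and 19 summits. None of these peaks overlapped an H3K9me1 peak, and 5 of them in each strain overlapped one of the other strain. A gap on chromosome 2, from 2999024 to 3037521 in WT mt+ cells and from 2999029 to 3037501 in WT mt− cells, held 6 and 12. By contrast, all 7 H3K4me1 peaks of the gap from 1884861 to 1896661 on chromosome 9 in WT mt+ overlapped H3K9me1. So did all 5 in each of the chromosome 9 gaps from 1837681 and from 1862015 in WT mt+. In WT mt− it was 9 of 9 on chromosome 16 (gap from 3175955), 7 of 8 on chromosome 3 (from 512983) and 6 of 7 on chromosome 6 (from 179810). It was 1 of 5 on chromosome 6 in WT mt+ (from 299422) and 0 of 7 on chromosome 9 in WT mt− (from 2801533).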
